A study of Bos taurus with 64 samples.

Results

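The miR-2284 and miR-2285 microRNAs (miRNAs) form a large family of short regulatory RNAs annotated in cattle. Members were taken by name: every row of the muscle count table whose name starts with miR-2284 or miR-2285 and whose counts summed to 1 or more over 64 libraries. The table had 1030 rows, of which 148 carried such a name, and 143 of these were members, 30 of miR-2284 and 113 of miR-2285. The remaining 5 (miR-2284q, miR-2285cg, miR-2285cr, miR-2285dm and miR-2285z) were listed at 0 throughout. The rule used names and a minimal count, so comparisons between breeds, diets and feed-efficiency classes did not enter it. The study measured miRNAs by sequencing in skeletal muscle of steers. The breeds were Charolais, kept for beef, and Holstein-Friesian, kept for milk. Steers were classed as low or high in residual feed intake (RFI), the feed eaten beyond that predicted from size and growth, so that a low-RFI animal is the more feed-efficient. Libraries fell into 8 groups of 8, by breed, RFI class and diet. The diets were zero-grazed grass (fresh cut ryegrass) in an earlier phase of 70 days and a high-concentrate diet (barley-based, with a limited allowance of grass silage) in a later phase of 70 days, with 14 days between them. All steers passed through this order of diets, so diet cannot be told apart from phase order, from the animals' growth or from a change in processing between the phases. The 64 libraries came from 59 steers, 5 of which gave a library in each phase, and the labels used here give no age.

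A miRNA is cut from a hairpin precursor and loaded into an Argonaute protein, where its seed, a short stretch near its 5′ end, pairs with messenger RNAs and lowers their translation or stability. The miR-2284 and miR-2285 families are found in ruminants and are known for very many related copies scattered through the bovine genome, often inside introns of other genes. Targets of the single members in muscle are for the most part not established. Where related copies are alike in sequence, a read can match several names equally well, and a counter may then give each name a fraction of the read.

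The libraries held between 4795936 and 12245099 counts (median 8143016). Levels are given as CPM, counts brought to a common library size with TMM (trimmed mean of M values) factors, which ran from 0.511 to 2.43. All 8 miRNAs of a muscle-fibre list (such as miR-1, miR-133a and miR-206) were present, and their summed level ran from 87920 to 333500 CPM on grass and from 110100 to 275100 CPM on concentrate. Of the markers of blood, miR-451 (log2 difference 1.30 ± 0.37 SE, adjusted p = 0.00526 by edgeR), miR-144 (1.09 ± 0.37, adjusted p = 0.0183) and 5 of 7 leukocyte markers, such as miR-223 (0.81 ± 0.24, adjusted p = 0.00751), were higher on concentrate. The other two, miR-146a (-0.008, adjusted p = 0.971) and miR-155 (0.02, adjusted p = 0.915), were not called. In Charolais miR-451 (1.76), miR-144 (1.68) and miR-223 (1.24) were called, and in Holstein-Friesian steers they were not (0.84, 0.51 and 0.38, with adjusted p of 0.239, 0.51 and 0.457). miR-142-3p and miR-142-5p were likewise called in Charolais only (0.96 and 1.06). miR-342 (0.31, adjusted p = 0.00252) and miR-150 (0.44, adjusted p = 0.0393) were called in Holstein-Friesian steers and not in Charolais (0.02 and 0.14). Whether the diet differences of these markers depended on breed is not shown here. Of the 8 muscle-fibre miRNAs 1, miR-1, was higher on concentrate (0.47, adjusted p = 2.96e-05). With total-count scaling none of these markers was called between the diets (adjusted p = 0.0605 for miR-451 and 0.101 for miR-1). In other lists, with TMM factors, miR-21-5p of the 6 smooth muscle and fibroblast markers was lower on concentrate (-0.37, adjusted p = 0.00975). Of a liver list miR-885 (0.41, adjusted p = 0.0227) and miR-192 (0.14, adjusted p = 0.0457) were higher. Within breeds, miR-1 (0.78, adjusted p = 2.63e-06), miR-21-5p (-0.80, adjusted p = 8.97e-05), miR-885 (0.60, adjusted p = 0.0268) and miR-192 (0.24, adjusted p = 0.0219) were called in Holstein-Friesian steers. In Charolais they were not (0.17, 0.06, 0.23 and 0.05), and whether these differences depended on breed is not shown here either. The summed erythrocyte and platelet markers (miR-451 and miR-144) were 3415 ± 3105 CPM on grass (SD, n = 32; range 300.2 to 11350) and 9013 ± 10420 on concentrate (n = 32; range 680.5 to 49580). The 7 leukocyte markers summed to 639 ± 300 CPM on grass (288 to 1376) and 963 ± 592 on concentrate (431 to 2609), and none of the markers in these lists was at 0. In bulk tissue fewer cells of a type and less RNA per cell cannot be told apart.

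The family was a small part of the muscle miRNA pool. Its members took 0.0467% ± 0.0121 of a library's counts (SD, n = 64; range 0.0253% to 0.0761%). Summed over the 143 members the level was 454 ± 45.9 CPM, with 448 ± 55.0 on grass, 461 ± 34.1 on concentrate, 457 ± 49.2 in Charolais and 452 ± 43.0 in Holstein-Friesian steers (n = 32 each). These ranges overlapped almost entirely. The order of the diets was the other way round in other measures: the share of counts was 0.0498% ± 0.0124 on grass and 0.0436% ± 0.0112 on concentrate, and with each row multiplied by the divisor described with the fractional counts the sum was 971 ± 114 and 834 ± 67.2 CPM. The summed level was not tested between the diets. The lowest sum was 305 CPM, in a Holstein-Friesian high-RFI library on grass, and the highest was 591 CPM, in a Charolais low-RFI library on grass.

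miR-2284x stood far above the rest. It held 40.5% of the family's counts at 184 ± 25.7 CPM (n = 64), which was rank 77 among all rows and 6.73 times the level of the next member. By the assembly ARS-UCD2.0 of RefSeq its only listed locus lies within the span of TIAM1, a gene for a guanine nucleotide exchange factor of the small GTPase Rac. The next 5 members lay close together: miR-2285ce at 27.4 CPM, miR-2285f at 26.0, miR-2285bn at 24.0, miR-2285dd at 23.2 and miR-2285da at 23.2. miR-2285av followed at 14.5 CPM, miR-2285q at 13.0, miR-2285k at 10.6 and miR-2285g at 9.35. Those 10 members held 78.3% of the family's counts. In all, 9 members reached 10 CPM, 24 lay between 1 and 10 CPM, 110 lay under 1 CPM and 59 of the latter under 0.1 CPM. Only 40 members had a count in all 64 libraries, 23 were seen in fewer than 8, and 25 had no more than 10 counts in the whole study.

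**Figure D1:**
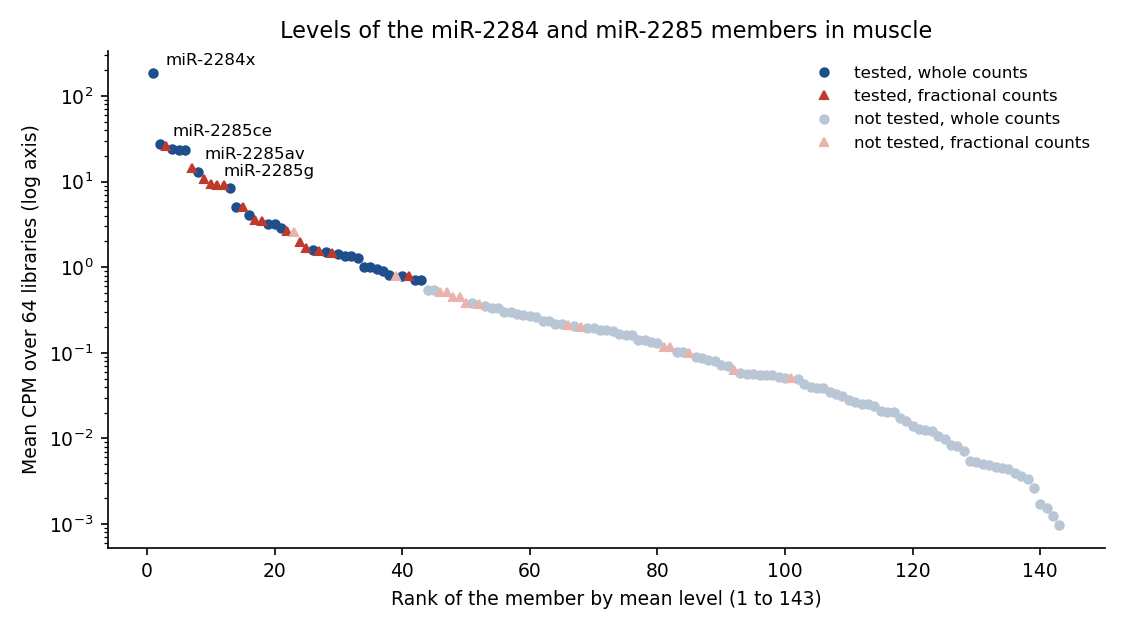
Mean level of each of the 143 members over 64 libraries, in CPM on a log axis, against rank. miR-2284x at 184 CPM stands above all other members, and the 41 tested members (dark symbols) are those with the higher levels; triangles mark the 30 members with fractional counts.

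Fractional counts were more frequent in the family than elsewhere in the table. They occurred in 30 of 143 members (21.0%; 6 of miR-2284 and 24 of miR-2285) and in 31 of the 661 other rows with a count (4.69%). Within a phase each such row held whole multiples of 1 divided by a small whole number, called the divisor here, which is what dividing reads over several names or places would give. The RefSeq annotation (ARS-UCD2.0, a later assembly than the ARS-UCD1.2 named for these files) lists 191 loci under 138 family names, 25 of them with more than 1 locus. It matched 135 members by name. Fractions were present in 16 of the 24 matched members with several loci (66.7%), in 12 of the 111 with a single locus (10.8%) and in 2 of the 8 unmatched members. In 12 of the 16 the divisor equalled the number of loci in a phase or both, and in 8 it did so in both. miR-2284y, miR-2284z and miR-2285n had 7 loci and a divisor of 7, and miR-2285k and miR-2285m had 5 loci and a divisor of 5. miR-2284aa had a divisor of 11 against 4 loci, and miR-2285f a divisor of 4 against 2 loci. Of the 191 loci 125 lay within the span of a protein-coding gene.

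For 11 members, 6 of them tested, the divisor was not the same on grass and on concentrate. It was 9 on grass and 8 on concentrate for miR-2285av, 4 and 5 for miR-2285o, 2 and 1 for miR-2284h-5p, 3 and 1 for miR-2285g, 3 and 1 for miR-2285bf, and 1 and 3 for miR-2285au. A value of 1 means that all counts in that phase were whole. Among the 318 miRNAs tested in the study 9 had such a change, so the family held 6 of the 9. A diet difference of these 6 therefore sets side by side values that may have been shared out in different ways, and how the change arose was not tested.

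For miR-2285av the counts stood in a near-fixed sum with those of miR-2284x and miR-2284y, and the sum was not the same in the grass and the concentrate libraries. On grass, 9 times the miR-2285av count less the miR-2284x count less 7 times the miR-2284y count left a remainder of 1 to 36 (median 10, n = 32), while the miR-2284x count itself ran from 796 to 4109. On concentrate the same sum ran from -2951 to -675. There, 8 times miR-2285av less 7 times miR-2284y left 2 to 20 (median 10, n = 32), with no place for miR-2284x, and on grass that difference ran from 699 to 3607. The divisors alone make such sums whole, so only the small size of the remainders describes a tie. On grass the miR-2284x count alone equalled 84.8% ± 2.63 (SD, n = 32) of 9 times the miR-2285av count.

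The levels followed the same pattern. Across the 32 grass libraries log2 CPM of miR-2285av was most like that of miR-2284x (Pearson r = 0.981), whose count was 7.63 ± 0.237 times as high. Across the 32 concentrate libraries it was most like miR-2284y (r = 0.999), to which its count stood in a ratio of 0.905 ± 0.00869. With the miR-2284x term taken out, (9 × miR-2285av − miR-2284x) / 8 stood to miR-2284y on grass in a ratio of 0.906 ± 0.011, close to the ratio on concentrate. These relations were noticed in the data, and the libraries share their scaling, so the correlations are a description.

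**Figure D2:**
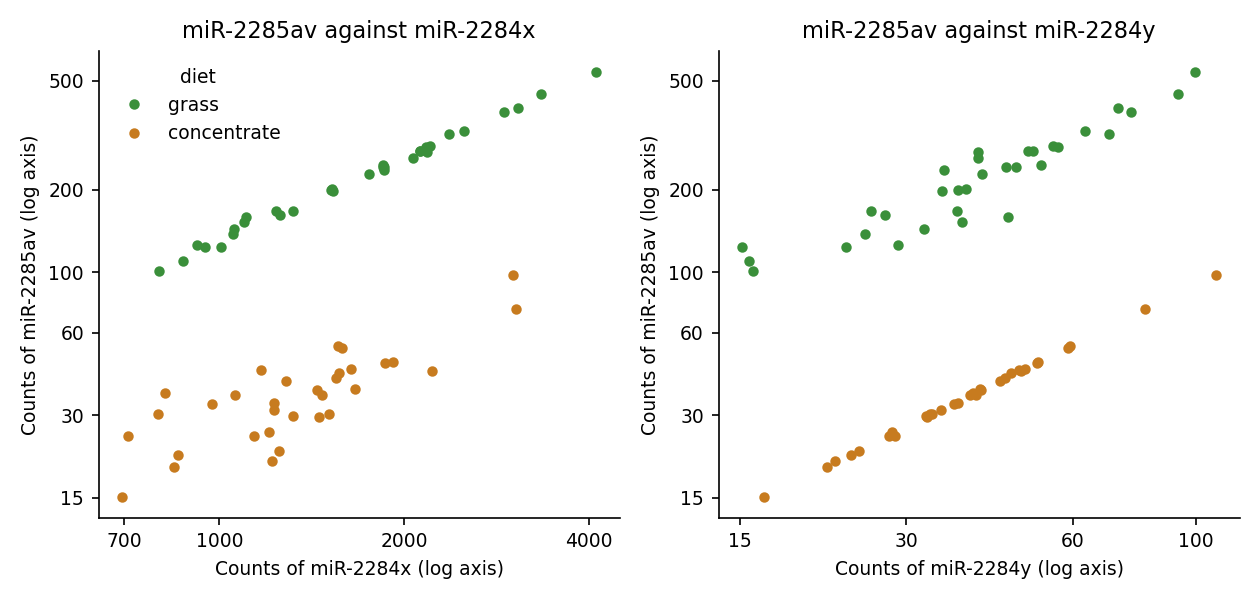
Counts of miR-2285av (log axis) against counts of miR-2284x (left) and of miR-2284y (right, both log axes), 1 point per library. The 32 grass libraries (green) lie along a line with miR-2284x and the 32 concentrate libraries (orange) along a line with miR-2284y.

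miR-2284h-5p was tied to miR-2284y in both phases at different ratios. Its count was 0.476 ± 0.019 of the miR-2284y count on grass (n = 32) and 0.915 ± 0.0491 on concentrate. Multiplied by its grass divisor of 2, the grass ratio was 0.952 ± 0.0381. The 2 ranges of the plain ratio, 0.448 to 0.536 on grass and 0.764 to 0.986 on concentrate, did not overlap.

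Other members moved together in every library. Of the 820 pairs among the 41 tested members 14 had a correlation of log2 CPM of 0.95 or more over 64 libraries, against a median of 0.164. Among these, 10 joined miR-2285bn, miR-2285ce, miR-2285da, miR-2285dd and miR-2285f, all at 23.2 to 27.4 CPM. miR-2285da and miR-2285dd differed by no more than 4 counts in each library (r = 0.999). The other pairs were miR-2284aa with miR-2284z (0.991), miR-2284ab with miR-2285by (0.991), miR-2285ai-5p with miR-2284ac (0.998) and miR-2285cm with miR-2285aw (0.978). In the last 3 pairs, 2 times the fractional member less its partner was never below 0 in the 64 libraries. That remainder ran from 0 to 7 counts for miR-2285by and miR-2284ab (whose own counts ran from 9 to 75). It ran from 1 to 24 for miR-2284ac and miR-2285ai-5p, and from 0 to 16 for miR-2285aw and miR-2285cm. Mean CPM of miR-2284ab was 1.923 times that of miR-2285by on grass and 1.915 times on concentrate. The other pairs were nearly equal, miR-2284ac at 0.974 and 0.990 of miR-2285ai-5p and miR-2285aw at 0.982 and 0.970 of miR-2285cm. There the remainder is about as large as the count itself, so its sign adds nothing to the correlation. The split of counts within such a group is uncertain, and its members are not independent readings.

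Diet was compared as concentrate minus grass, averaged over breed and RFI class, with edgeR's quasi-likelihood test and Benjamini-Hochberg adjustment over the 318 tested miRNAs. Of the 143 members 41 passed the filter on low counts, 9 of miR-2284 and 32 of miR-2285. Of the 41, 10 were higher on concentrate and 1 was lower, where 17.9% of all tested miRNAs were higher and 16.0% lower. Their median log2 difference was 0.24 against 0.01 for all 318, and 33 of the 41 lay above 0. For let-7 with miR-98 the median was -0.02, with 2 higher and 0 lower of 10, and for miR-2286 to miR-2489 it was 0.10, with 2 higher and 0 lower of 10. The count of calls depended on the scaling: with total counts in place of TMM factors 3 members were higher and 3 lower. The family's median was then -0.02, and the median of all 318 moved to -0.24. Shares of all tested miRNAs called with total-count scaling are not given, here or in the breed comparisons. Changes in the family's calls with that scaling are thus not shown to be particular to it. miR-2284x, which carries the largest share of the family's counts, was at 184 ± 30.5 CPM on grass and 184 ± 20.3 on concentrate (0.00 ± 0.05, adjusted p = 0.974 by edgeR), and at -0.24 with total-count scaling (adjusted p = 0.0473).

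**Figure D3:**
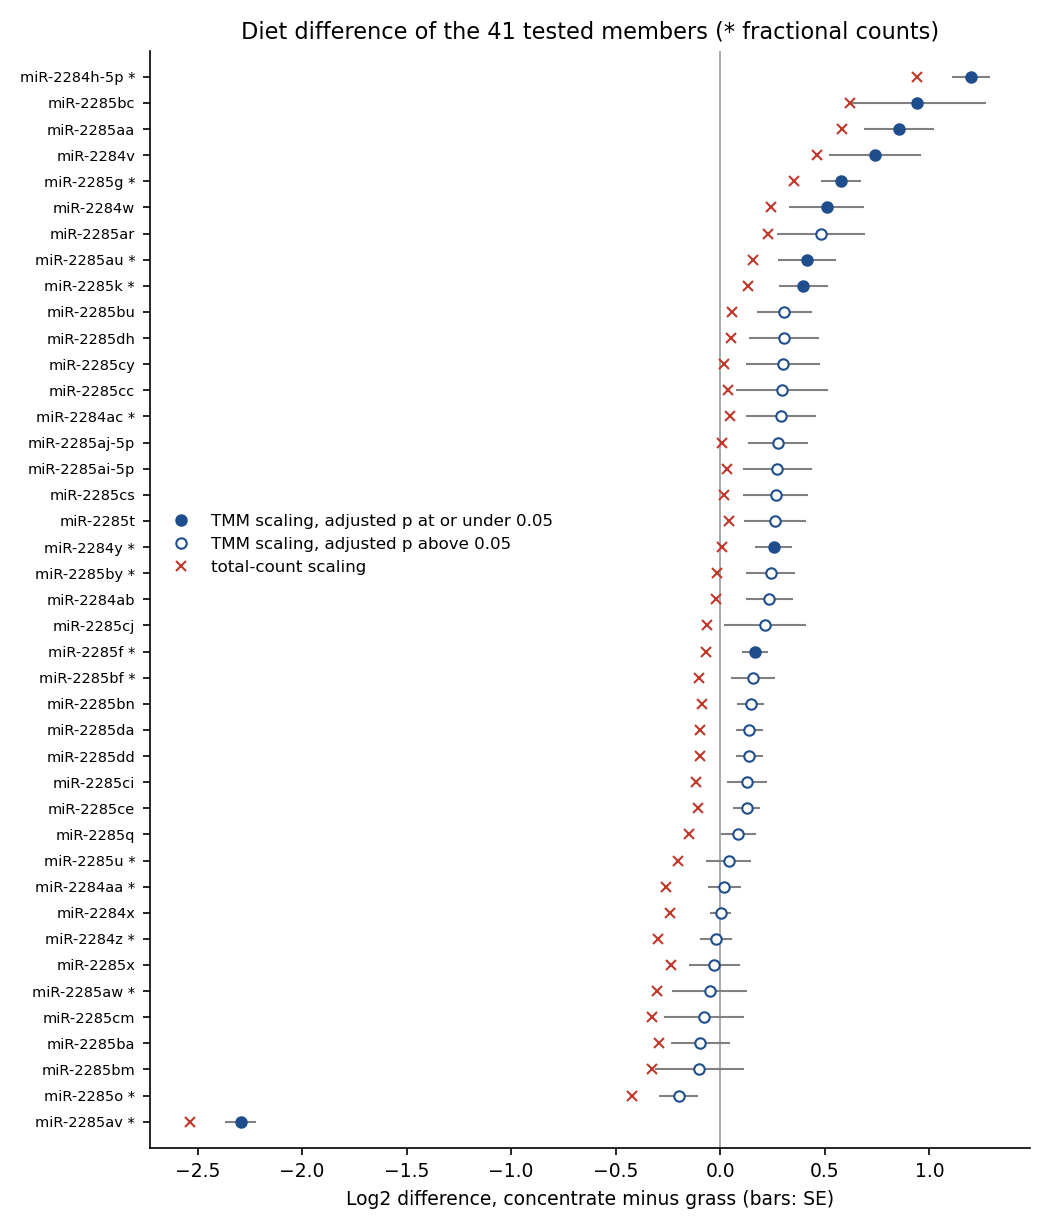
Log2 difference between concentrate and grass for each of the 41 tested members, with SE bars, under TMM scaling (circles, filled where the adjusted p was at or under 0.05) and under total-count scaling (crosses). Crosses lie to the left of the circles for all members, and those of miR-2285f and other members near 0 change sign; miR-2285av at -2.29 is far from the rest, and stars mark fractional counts.

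The member with the largest difference was miR-2285av. It ran from 17.4 to 34.9 CPM on grass (median 23.7) and from 3.18 to 7.78 CPM on concentrate (median 4.73). No concentrate library reached the grass range, and miR-2285av was the only tested member whose ranges did not overlap between the diets. Overlap was not examined for the tested miRNAs outside the family. The log2 difference was -2.29 ± 0.07 (SE; adjusted p = 1.48e-36, lower in 32 of 32). When the miR-2284x term was taken from the grass counts, a setting chosen after the data were seen, the difference turned to 0.24 (adjusted p = 0.0274). With that setting 11 members were higher and 0 lower. When instead each row was multiplied by its divisor before testing, the difference of miR-2285av was -2.42 (adjusted p = 2.87e-38 by edgeR).

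miR-2284h-5p ran from 1.04 to 3.12 CPM on grass (median 2.22) and from 3.09 to 8.37 on concentrate (median 4.92). The lowest concentrate and the highest grass libraries just met. Its difference was 1.2 ± 0.09 (adjusted p = 2.51e-17) and 0.24 (adjusted p = 0.0246) when each row was multiplied by its divisor before testing.

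miR-2285g ran from 2.55 to 11.5 CPM on grass (median 7.40) and from 7.12 to 18.1 on concentrate (median 11.0), with a broad overlap. The difference of 0.58 ± 0.10 (adjusted p = 2.05e-06) turned to -0.96 (adjusted p = 9.09e-13) after multiplication by the divisors of 3 and 1. The same step moved miR-2285au from 0.42 ± 0.14 (adjusted p = 0.0154; 0.30 and adjusted p = 0.0596 with the steer as a random replicate block) to 2.05, miR-2285bf from 0.16 (adjusted p = 0.251) to -1.39 and miR-2285o from -0.20 (adjusted p = 0.0903) to 0.15. In miR-2285au 3.125% of the concentrate libraries held a fraction, and in miR-2285bf 18.75% of the grass libraries did. Those few libraries set the divisor of 3, by which every library of that phase was multiplied. The values of 2.05 and -1.39 thus depend on a divisor that few libraries show. A row whose shared reads happened to add up to whole counts cannot be told apart from one that was never divided, so what the multiplied value of such a row holds is uncertain. Across these settings miR-2284h-5p and miR-2285au stayed above 0, while miR-2285av, miR-2285g, miR-2285bf and miR-2285o each had values on both sides of 0.

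Among the 35 tested members whose divisor was the same in both phases 7 were higher and 0 lower, with a median of 0.24. The 26 members with whole counts throughout had a median of 0.25, with 4 higher and 0 lower. Those 4 were miR-2285aa, miR-2285bc, miR-2284v and miR-2284w, and each has 1 listed locus, within the span of a protein-coding gene. Fractional members with an equal divisor added miR-2285k, miR-2284y and miR-2285f.

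miR-2285aa, whose locus lies within ERCC3, a DNA helicase gene of transcription and repair, ran from 0.400 to 2.22 CPM on grass (median 0.983) and from 0.504 to 4.05 on concentrate (median 1.63). The difference was 0.86 ± 0.17 (adjusted p = 3.82e-05), and 24 of 32 concentrate libraries lay above the grass median. It was called under every scaling tried, and it was higher in 5 of the 5 steers sampled in both phases, by 0.58 to 1.83.

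miR-2285bc, within ORC1, a gene of the DNA replication origin complex, ran from 0 to 7.02 CPM on grass (median 1.36) and from 0 to 16.7 on concentrate (median 2.33). The spread within each diet was wider than the gap between them. The difference of 0.94 ± 0.33 (adjusted p = 0.0201) rested on few libraries: it was 0.65 (adjusted p = 0.117) without Charolais high-RFI concentrate replicate 3 and 0.82 (adjusted p = 0.0515) without Holstein-Friesian low-RFI concentrate replicate 1. It was also not called by limma-voom (adjusted p = 0.11) or with the steer as a random replicate block (0.64, adjusted p = 0.137). In the steers sampled in both phases it was higher in 2 of 5.

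miR-2284v (within HS3ST4, a heparan sulfate sulfotransferase gene) had medians of 0.674 CPM on grass (0 to 1.4) and 0.942 on concentrate (0 to 4.36). Its difference was 0.74 ± 0.22 (adjusted p = 0.00751), and it was not called by limma-voom (adjusted p = 0.0652) or with the steer as a random replicate block (0.48, adjusted p = 0.0936). miR-2284w (within DOCK11, another exchange factor gene for small GTPases) had medians of 1.11 CPM on grass (0.211 to 3.68) and 1.79 on concentrate (0.367 to 4.57), a difference of 0.51 ± 0.18 (adjusted p = 0.0225). Both ranges overlapped widely.

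The remaining calls were smaller. miR-2285k had medians of 8.41 CPM on grass (4.05 to 21.1) and 11.2 on concentrate (3.48 to 23.4), a difference of 0.40 ± 0.12 (adjusted p = 0.00751). miR-2284y, the partner of miR-2285av and miR-2284h-5p, had medians of 4.68 (2.25 to 6.95) and 5.23 CPM (3.49 to 8.49), a difference of 0.26 ± 0.09 (adjusted p = 0.0194). miR-2285f had medians of 23.9 (14.6 to 31.9) and 27.2 CPM (20.4 to 36.6) and a difference of 0.17 ± 0.06 (adjusted p = 0.0336). Its close companions miR-2285bn (0.15), miR-2285dd (0.14), miR-2285da (0.14) and miR-2285ce (0.13) missed the threshold at adjusted p of 0.0765 to 0.119. All 4 passed it with RLE scaling (adjusted p of 0.0253 to 0.0427), by DESeq2 (0.017 to 0.0312) and in 35 to 54 of the 64 fits that left out a library, so they are not shown to differ from miR-2285f. With total-count scaling miR-2284v, miR-2285k, miR-2285au, miR-2284y, miR-2285bc, miR-2284w and miR-2285f were not called. With no filter on low counts miR-2285au, miR-2284y, miR-2285bc, miR-2284w and miR-2285f lost their calls (adjusted p of 0.0645 to 0.185), and miR-2285f also did so with upper-quartile scaling (adjusted p = 0.134). Of the tested fractional members, miR-2284aa (0.02), miR-2284z (-0.02), miR-2285by (0.24), miR-2285u (0.04), miR-2284ac (0.29) and miR-2285aw (-0.05) were not called in either direction.

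**Figure D4:**
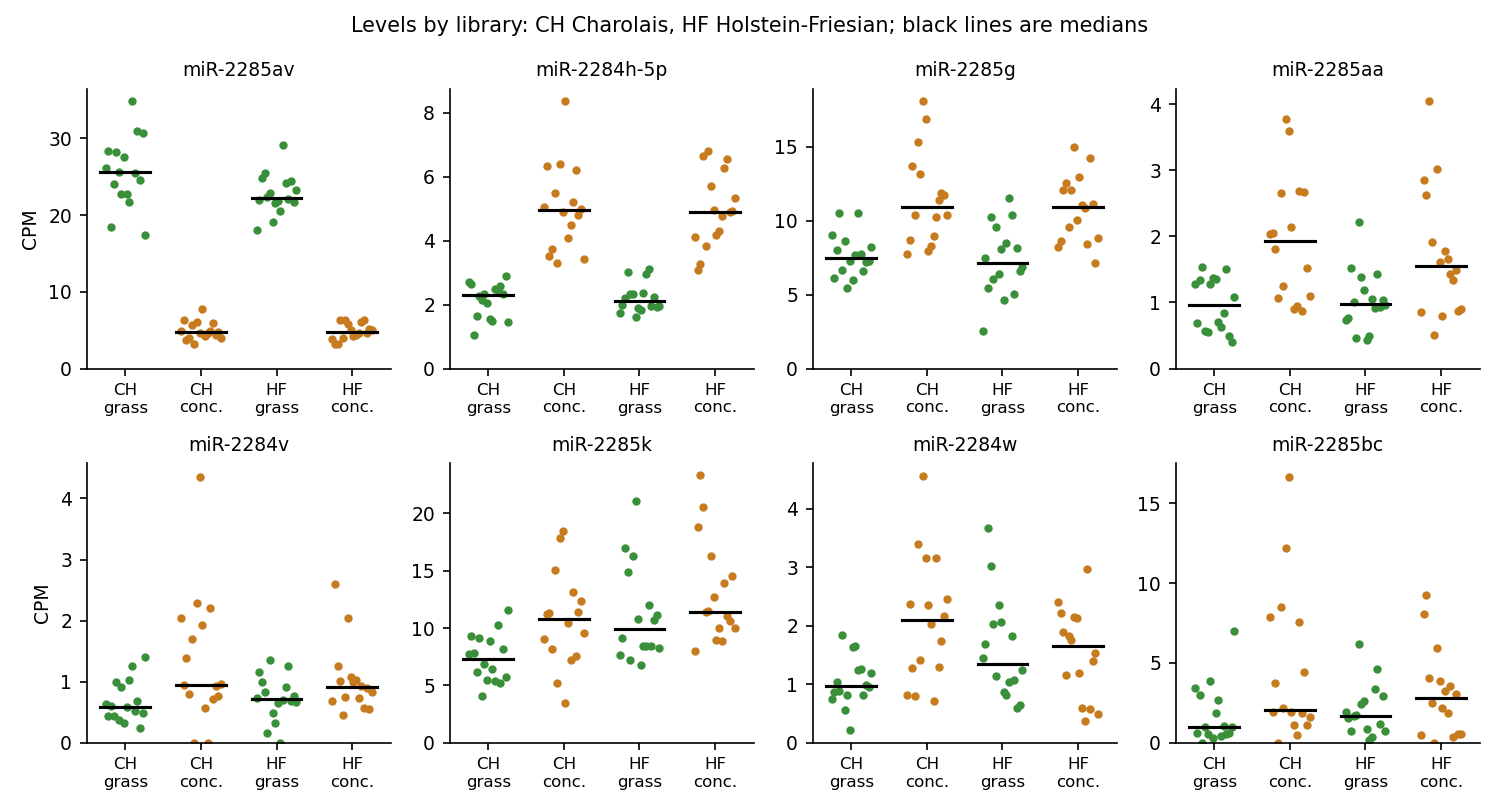
Level in CPM of 8 members called between the diets, 1 point per library, in Charolais (CH) and Holstein-Friesian (HF) steers on grass (green) and concentrate (orange). Black lines are medians of 16 libraries; miR-2285av does not overlap between the diets, while miR-2285bc on concentrate reaches 16.7 CPM in a single Charolais library.

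Several of these members tracked the blood markers among steers on the same diet. miR-2285bc ranked 1 and 2 of 64 in the same libraries that ranked 1 and 2 for both marker lists, Charolais high-RFI concentrate replicate 3 (leukocyte markers 2610 CPM, erythrocyte and platelet markers 49575 CPM) and Charolais low-RFI concentrate replicate 5 (2418 and 32368 CPM). Its log2 level correlated with the summed leukocyte markers at r = 0.889 on grass (Spearman rho = 0.902, n = 32) and r = 0.916 on concentrate (rho = 0.932, n = 32). With the erythrocyte and platelet markers r was 0.916 on grass (rho = 0.93) and 0.954 on concentrate (rho = 0.938). Each of these 4 relations had a two-sided permutation p of 1e-05, the smallest that 100000 permutations can give (adjusted p = 0.000164 over 164 relations, with 41 members, 2 marker lists and 2 diets). Without the 2 libraries farthest from the median marker level r was 0.851 to 0.94.

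miR-2284v, miR-2285cc and miR-2285k also correlated with the leukocyte markers in both diets. On grass r was 0.508 (rho = 0.48, adjusted permutation p = 0.016), 0.632 (rho = 0.6, adjusted p = 0.000883) and 0.541 (rho = 0.528, adjusted p = 0.0084) in that order. On concentrate it was 0.732 (rho = 0.734), 0.896 (rho = 0.799) and 0.63 (rho = 0.623), with adjusted permutation p of 0.00109 or less. Without the 2 farthest libraries r was 0.381 to 0.868 for these members. miR-2285aa passed the threshold on concentrate (r = 0.816, rho = 0.824, adjusted permutation p = 0.000164) and missed it on grass. So did miR-2285au (r = 0.631, rho = 0.617, adjusted p = 0.000984 on concentrate) and miR-2284w (r = 0.523, rho = 0.467, adjusted p = 0.0115). Whether the relations differed between the diets was not tested.

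miR-2284x went the other way in both diets, at r = -0.656 on grass (rho = -0.629, adjusted permutation p = 0.00082) and r = -0.578 on concentrate (rho = -0.534, adjusted p = 0.00461), and at -0.62 and -0.634 without the 2 farthest libraries. Other members were negative in a single diet, among them miR-2285q (r = -0.717, adjusted permutation p = 0.000164) and miR-2285av (-0.644, adjusted p = 0.000937) on grass. On concentrate miR-2285ba was so (-0.623, adjusted p = 0.00205). In all, 10 members on grass (4 of them positive) and 13 on concentrate (9 positive) had an adjusted p at or under 0.05 with the leukocyte markers, and 5 did so in both diets. Tested miRNAs outside the family were not set against the marker sums, so these counts are not shown to be particular to it. CPM values of a library share a total and a scaling factor, and these relations were looked for after the levels had been seen. The part of blood in the diet differences of miR-2285bc, miR-2284v, miR-2284w, miR-2285aa, miR-2285k and miR-2285au was not tested.

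Within Charolais 9 members were higher on concentrate and 2 lower (9.43% and 11.3% of all tested). Within Holstein-Friesian 6 were higher and 1 lower (10.7% and 13.5% of all tested), and 10 were higher and 1 lower with the steer as a fixed replicate block. With total-count scaling the calls fell to 1 higher and 2 lower in Charolais and to 1 higher and 1 lower in Holstein-Friesian steers. The shares of all tested miRNAs called in each breed with that scaling are not given here. miR-2285av (-2.37 ± 0.11 and -2.22 ± 0.10), miR-2284h-5p (1.21 ± 0.13 and 1.19 ± 0.13), miR-2285g (0.60 ± 0.14 and 0.56 ± 0.14) and miR-2285aa (1.00 ± 0.24 and 0.71 ± 0.23) were called in each breed. With counts times the divisor miR-2284h-5p lost its call in Holstein-Friesian steers (0.16, adjusted p = 0.362). With total-count scaling miR-2285g (adjusted p of 0.0518 in Charolais and 0.148 in Holstein-Friesian steers) and miR-2285aa (0.0521 and 0.332) lost theirs in each breed, as did miR-2284w in Charolais (0.0521) and miR-2285bu in Holstein-Friesian steers (0.223). miR-2285aa in Holstein-Friesian steers lost its call without low-RFI concentrate replicate 1 (0.59, adjusted p = 0.0691), with no filter (0.67, adjusted p = 0.0617) or without high-RFI concentrate replicate 4 (0.65, adjusted p = 0.0515).

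Among the calls within Charolais was miR-2284w, with a median of 0.970 CPM on grass (0.211 to 1.85) and 2.10 on concentrate (0.707 to 4.57), a difference of 1.05 ± 0.26 (adjusted p = 0.00195). In Holstein-Friesian steers its medians were 1.35 and 1.65 CPM. Among the calls within Holstein-Friesian was miR-2285bu, with medians of 1.13 CPM on grass (0.403 to 1.57) and 1.62 on concentrate (0.990 to 3.53), a difference of 0.65 ± 0.18 (adjusted p = 0.00489). In Charolais its medians were 1.27 and 1.24 CPM. Neither member passed the test of the difference between breeds in the diet effect, so these calls are not shown to differ by breed.

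The 5 steers that gave a library in each phase allowed a comparison within animals. All were Charolais except steer 1639, a Holstein-Friesian, and steer 307 was high in RFI on grass and low on concentrate. miR-2285av fell in 5 of 5, by 1.91 to 2.89 on the log2 scale. miR-2284h-5p was higher on concentrate in 5 of 5 (0.52 to 1.60), as were miR-2285g (0.52 to 1.72) and miR-2284w (0.37 to 0.89). miR-2284x was higher in 2 of 5, between -0.53 and 0.64. miR-2284v and miR-2285k were higher in 3 of 5 and miR-2285f in 2 of 5. The upper ends for miR-2284x and miR-2285g came from steer 1639, whose grass library had the lowest family sum (304.9 CPM).

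Breed was compared as Holstein-Friesian minus Charolais, averaged over diet and RFI class. In Holstein-Friesian steers 4 members were higher and 4 lower, where 11.0% of all tested miRNAs were higher and 10.7% lower, and the family's median was 0.00. With total-count scaling 4 were higher and 0 lower. The higher members were miR-2285t, miR-2285k, miR-2284ab and miR-2285by, and the lower ones miR-2284z, miR-2284aa, miR-2285aj-5p and miR-2285ba. Because miR-2284ab and miR-2285by moved together across libraries, as did miR-2284z and miR-2284aa (both r = 0.991), the 8 calls may not be 8 separate readings.

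Markers of other cell types also differed between the breeds. In Holstein-Friesian steers 2 of 7 leukocyte markers were higher, miR-146a (0.70, adjusted p = 0.00114) and miR-155 (0.44, adjusted p = 0.00664), and 0 lower. The erythrocyte and platelet markers were not called. Of the 6 smooth muscle and fibroblast markers 3 were higher and 0 lower, among them miR-199a-5p (0.45, adjusted p = 0.011) and miR-143 (0.31, adjusted p = 0.0347). Of the 8 muscle-fibre miRNAs miR-206 was higher (0.89, adjusted p = 6.38e-05) and miR-486 lower (-0.46, adjusted p = 0.000673), and their summed level ran from 150400 to 333500 CPM in Charolais and from 87920 to 242700 CPM in Holstein-Friesian steers. These 6 named markers were called with total-count scaling too. With TMM factors each was called on grass, and on concentrate only miR-206 was (0.97, adjusted p = 0.00485). There miR-146a (0.46), miR-155 (0.25), miR-199a-5p (0.30), miR-143 (0.15) and miR-486 (-0.34) had adjusted p of 0.249 to 0.662. Whether the breed differences of these markers depended on diet is not shown here. Of a liver list miR-885 was lower in Holstein-Friesian steers on average (-0.61, adjusted p = 0.00214). The part of these cell types in the members' breed differences was not tested.

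miR-2285t, with its locus within FCGR2B, a gene for a receptor of immunoglobulin G on immune cells, had the largest breed difference. It ran from 1.31 to 6.63 CPM in Charolais (median 3.26) and from 0.672 to 11.2 CPM in Holstein-Friesian steers (median 5.25). The libraries overlapped, with 24 of 32 Holstein-Friesian libraries above the Charolais median. The difference was 0.71 ± 0.15 (adjusted p = 0.00076 by edgeR).

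miR-2284z ran from 6.61 to 15.1 CPM in Charolais (median 9.96) and from 4.83 to 10.9 in Holstein-Friesian steers (median 8.26), a difference of -0.33 ± 0.08 (adjusted p = 0.0016, 29 of 32 below the Charolais median). Its companion miR-2284aa had medians of 9.99 and 8.36 CPM and a difference of -0.32 ± 0.08 (adjusted p = 0.00214, 29 of 32). Under total-count scaling neither was called (-0.16 and -0.15), nor were miR-2285aj-5p (-0.35, adjusted p = 0.163) and miR-2285ba (-0.36, adjusted p = 0.0914). miR-2285k had medians of 8.52 CPM in Charolais (3.48 to 18.5) and 10.9 in Holstein-Friesian steers (6.74 to 23.4), a difference of 0.44 ± 0.12 (adjusted p = 0.00539).

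The other calls were of members with low counts. miR-2285aj-5p had medians of 1.06 CPM in Charolais (0.429 to 2.63) and 0.843 in Holstein-Friesian steers (0.216 to 1.48), a difference of -0.52 ± 0.14 (adjusted p = 0.00664). miR-2284ab (2.67 and 3.46 CPM, 0.32 ± 0.11, adjusted p = 0.0347) and miR-2285by (1.36 and 1.80 CPM, 0.31 ± 0.12, adjusted p = 0.0435) stood near the threshold. Both missed it with no filter and by limma-voom (adjusted p of 0.0587 to 0.0929), and miR-2285by also by DESeq2 (0.0563) and with the steer as a random replicate block (0.0693). They lost their calls in 23 and 32 of the 64 fits that left out a library, where the adjusted p reached 0.0799 and 0.0918.

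**Figure D5:**
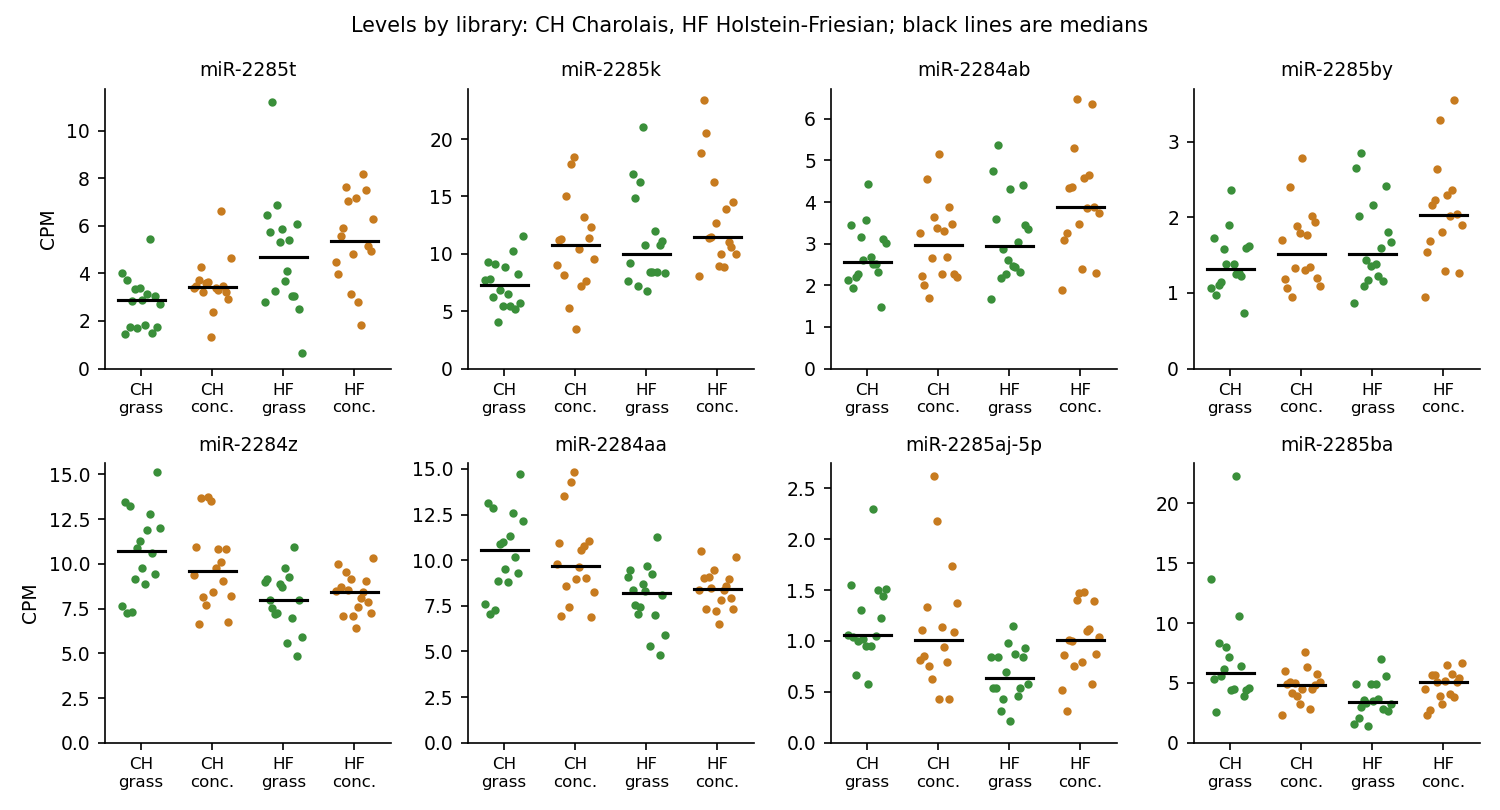
Level in CPM of the 8 members called between the breeds, 1 point per library, in Charolais (CH) and Holstein-Friesian (HF) steers on grass (green) and concentrate (orange). Black lines are medians of 16 libraries; miR-2284z and miR-2284aa show nearly the same pattern, and miR-2285ba reaches 22.3 CPM in a Charolais library on grass.

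On grass 3 members were higher and 5 lower in Holstein-Friesian steers (14.8% and 15.4% of all tested), and with total-count scaling 3 were higher and 1 lower. The 5 with the smallest p were miR-2285ba, miR-2285aj-5p (-0.81 ± 0.20), miR-2284z (-0.43 ± 0.11), miR-2285t (0.78 ± 0.21) and miR-2284aa (-0.40 ± 0.11), with adjusted p of 0.004 or less. miR-2284x was also among the calls (-0.21, adjusted p = 0.0177), with a median of 195 CPM in Charolais (135 to 275) and 169 in Holstein-Friesian steers (138 to 215). On concentrate 0 of the 41 members were called by edgeR, with 1.57% of all tested called, and 13 had an unadjusted p under 0.05. The number of all tested miRNAs under that unadjusted p is not given here, so the 13 are not shown to be particular to the family. The calls by DESeq2 and by limma-voom were 0 as well. The smallest p on concentrate were those of miR-2285t (0.64 ± 0.21, adjusted p = 0.115), miR-2284ab (0.41 ± 0.16, adjusted p = 0.249) and miR-2285dh (-0.57 ± 0.24, adjusted p = 0.249).

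The breed difference depended on diet for 1 member, miR-2285ba, where 3.46% of all tested miRNAs had such an interaction. On grass it ran from 2.53 to 22.3 CPM in Charolais (median 5.84) and from 1.38 to 7.0 in Holstein-Friesian steers (median 3.38), a difference of -1.0 ± 0.20 (adjusted p = 0.000328, 15 of 16 below the Charolais median). On concentrate it ran from 2.31 to 7.59 CPM in Charolais (median 4.84) and from 2.35 to 6.65 in Holstein-Friesian steers (median 5.06). The breeds thus lay apart on grass and together on concentrate. The interaction was 1.01 ± 0.28 (adjusted p = 0.0239 by edgeR), and it was lost with total-count scaling (0.89, adjusted p = 0.269) and upper-quartile scaling (0.89, adjusted p = 0.0513). It was also lost when any of 6 libraries was left out: Holstein-Friesian high-RFI grass replicates 2 and 6, Charolais low-RFI concentrate replicates 1 and 6, and Holstein-Friesian low-RFI concentrate replicates 5 and 8 (0.90 to 0.93, adjusted p from 0.0505 to 0.0603).

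No member was called between low and high RFI. In each of the 5 contrasts, the average over breed and diet, Charolais steers on grass, the same breed on concentrate, Holstein-Friesian steers on grass and the latter on concentrate, 0 of 41 members and 0.0% of the 318 miRNAs were called by edgeR, and DESeq2 and limma-voom called 0 members too. Members with an unadjusted p under 0.05 numbered 1, 1, 0, 3 and 0 in that order, and the numbers over all tested miRNAs are not given here. In the average the smallest p belonged to miR-2285ci (0.20 ± 0.10), miR-2285q (0.15 ± 0.08) and miR-2285f (0.07 ± 0.06), all at an adjusted p of 1.00.

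Within groups of 8 the largest RFI difference was that of miR-2285bm on grass in Holstein-Friesian steers. It ran from 0.77 to 2.96 CPM at low RFI (median 1.29) and from 0.17 to 1.35 CPM at high RFI (median 0.60). The groups overlapped, although 8 of 8 low-RFI libraries lay above the high-RFI median, and the difference of 1.08 ± 0.40 had an adjusted p of 0.653. In Charolais on grass miR-2285bm leaned the other way (-0.69 ± 0.42, adjusted p = 0.86). There the smallest p were those of miR-2285ba (0.62 ± 0.27) and miR-2285k (-0.48 ± 0.24), both at an adjusted p of 0.86. miR-2285k ran from 4.05 to 7.83 CPM at low RFI and from 5.47 to 11.6 at high RFI, with 8 of 8 low-RFI libraries below the high-RFI median.

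For the rest, in Holstein-Friesian steers on grass miR-2285ci (0.44 ± 0.19, adjusted p = 0.71) and miR-2285aj-5p (-0.63 ± 0.30, adjusted p = 0.872) came next. On concentrate the smallest p were those of miR-2285bm (-0.72 ± 0.46), miR-2285u (-0.33 ± 0.22) and miR-2285ba (-0.41 ± 0.29) in Charolais, at adjusted p of 0.878. In Holstein-Friesian steers they were those of miR-2285q (0.33 ± 0.17, adjusted p = 0.443), miR-2284ac (0.58 ± 0.33, adjusted p = 0.516) and miR-2285ai-5p (0.57 ± 0.33, adjusted p = 0.522), of which the last 2 moved together (r = 0.998). The 95% interval of miR-2285q ran from -0.0016 to 0.66 and that of miR-2284ac from -0.06 to 1.23, and both include 0.

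The 102 untested members held 3.44% of the family's counts. Of these 101 fell under the filter on low counts, and none of those had a mean above 0.792 CPM. The other was miR-2285b, whose cell was empty in 3 Holstein-Friesian concentrate libraries. In the other 61 libraries it ran from 0.545 to 3.45 CPM on grass (median 2.21, n = 32) and from 1.22 to 5.29 on concentrate (median 2.55, n = 29). Its diet difference in a fit without those 3 libraries, chosen after the data were seen, was 0.50 ± 0.13 (adjusted p = 0.00219). Its divisor was 1 on grass and 2 on concentrate, so this value carries the same limit as those of the 6 members above.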

How the data were processed

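miRNAs were counted in 64 libraries of skeletal muscle, in 8 groups of 8 by breed, RFI class and diet from the labels. The authors deposited 1 table of estimated counts per miRNA, not normalized, with 1030 names and a column per library. The submitters' processing notes name the build ARS-UCD 1.2 with edgeR 3.5, R 3.4, cutadapt 2.6 and FastQC 0.11.8, with no role stated. The aligner, the counter and how it treats reads with several matches are not given in these sources. Mature sequences were not used here. Total counts per library, without miR-2285b, ran from 4795936 to 12245099.

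The members and lists were chosen with earlier results of these data known. A value more than 0.001 from a whole number was called fractional, and the divisor was the smallest whole number up to 12 that made a row's values whole within 0.02 in all libraries of a phase. Counts were rounded and tested by edgeR (version 4.0.16, under R 4.3.3; TMM factors, filterByExpr over the 8 groups, robust quasi-likelihood fit of 8 group means, 56 residual degrees of freedom). Benjamini-Hochberg adjustment ran over all 318 tested miRNAs in each of 12 contrasts, with a threshold of 0.05. Levels are CPM as mean ± SD or as lowest, median and highest, and log2 differences are ± SE. Correlations between members used log2 CPM with a prior count of 2, and those with marker sums used log2 of CPM plus 0.5. The edgeR test was tried on simulated data for the diet average. The scaling factors of the real libraries were kept there, so that trial did not check the choice of scaling.

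Members were named as follows: the 10 highest in mean CPM, those called in the diet average, breed average or interaction, up to 5 with the smallest p in each comparison within a breed or diet, 3 in each RFI comparison, tested fractional members, and pairs correlated at 0.95 or more. miR-2285b, miR-2285ci and miR-2284x in the grass comparison, miR-2285cc and miR-2285n and miR-2285m as examples were added after their values were seen. The numbers of 5 steers sampled in both phases come from the labels and pair their libraries. The estimated correlation within a steer was 0.392. The reported fit had no block, and alternatives had the steer as a fixed or random block. Other alternatives were DESeq2 1.42.0, limma-voom (limma 3.58.1), 3 other scalings, no filter, fractions kept, counts times the divisor and each library left out in turn. Chosen after the data were seen were leaving out the 3 libraries with an empty cell or the 2 libraries far from their group in miR-143, and taking the miR-2284x term out of miR-2285av. p-values of the reported fit measure the spread between libraries within groups, and take libraries of the same steer as independent. The permutations for the marker sums shuffled all libraries of a diet, across breeds and RFI classes.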

Additional observations from a re-analysis of the deposited data

Results flagged for a closer look

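The summed level of the family was 304.9 CPM in Holstein-Friesian high-RFI grass replicate 1, while the other 7 libraries of that group lay between 401.6 and 469.7 CPM, so that library stood far from its group. miR-2285bm was at 1.671 CPM in Charolais low-RFI grass replicate 4, against 0.2203 to 0.879 CPM in the other 7 libraries of its group. These were 2 of 40 groups examined for a library standing apart, and chance gives about 1 in 20. The difference between breeds in miR-2285ba was not the same on the 2 diets by the test of the interaction (1.012 on the log2 scale, adjusted p = 0.0239 by edgeR's quasi-likelihood test).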

How the results depend on the processing

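Members called between the diets numbered 11 on average, and 17 with RLE scaling, 6 with total-count scaling, 19 with counts times the divisor, 17 without the concentrate libraries of steers sampled in both phases, 19 without the 2 libraries far in miR-143, 17 by DESeq2, and 11 to 20 when single libraries were left out (over 16 in 29 of 64 fits). In Charolais they numbered 11, and 3 with total-count scaling and 5 to 14 with single libraries left out, the lowest without Charolais high-RFI concentrate replicate 3. Holstein-Friesian steers had 7, and 2 with total-count scaling, 14 with counts times the divisor, 15 without the 2 libraries far in miR-143, 11 by limma-voom, 11 with the steer as a fixed replicate block, 14 as a random replicate block, and 4 to 16 with single libraries left out, the lowest without Holstein-Friesian high-RFI concentrate replicate 4. Between the breeds 8 fell to 4 with total-count scaling, both on average and on grass, and ranged from 6 to 13 on average with single libraries left out. The 1 interaction call became 0 with total-count or upper-quartile scaling. It also became 0 without the concentrate libraries of steers sampled in both phases and without the libraries with an empty cell. It became 2 with no filter, and 0 to 3 with single libraries left out. Other counts of calls stayed within 1.5 times, including those of the replicate blocks, and counts of 0 between RFI classes stayed at 0 in each alternative. The family's summed level was 902.2 CPM with counts times the divisor. Signs turned for miR-2285av without its miR-2284x term (0.24 on average, 0.28 in Charolais, 0.21 in Holstein-Friesian steers, and 0.0145 between the breeds) and for miR-2285g with counts times the divisor (-0.96 on average, -0.92 in Charolais and -1.01 in Holstein-Friesian steers). The diet difference turned, with total-count scaling, for miR-2285f (-0.0682), miR-2284x (-0.24), miR-2285ce (-0.10), miR-2285bn (-0.0885), miR-2285dd (-0.10), miR-2285da (-0.10) and miR-2285q (-0.15). The same scaling turned the breed difference for miR-2284x (0.0524), miR-2285av (0.0295), miR-2285q (0.0165) and miR-2285g (0.0276), and the RFI average of miR-2285f (-0.0276). miR-2284x also turned with upper-quartile scaling (-0.024) and with no filter (-0.0293). Of these, only the diet differences of miR-2285av, miR-2285g and miR-2285f had been called. Apart from the removed term and the multiplication themselves, the cause was not tested. The family's low counts limit most members: 110 of 143 lay under 1 CPM.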
